A study of Mus musculus with 5 samples.

Results

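The translation initiation and elongation factors are the proteins that bring ribosomes to messenger RNA and move them along it. They were taken here as every probe set whose only gene symbol in the platform annotation begins with Eif or Eef, leaving out the interferon-induced kinase gene Eif2ak2. The rule found 153 of the 45101 probe sets on the array, for 58 of 18193 genes with such a probe set. Expression was measured on 5 Affymetrix arrays of CD4+ T cells from adult T cell receptor-transgenic SCID mice on a Balb/c background, 7 to 12 weeks old, in which the receptor recognises the myeloma MOPC315. The 3 activated samples were GB113+ cells sorted from the tumor-draining lymph nodes 8 days after 100000 myeloma cells were placed under the skin in 250 µl of growth factor-reduced Matrigel. Nodes were pooled, from experiments with 12 to 15 mice, and the sorted cells were at least 95% pure. The 2 naive samples were the same kind of transgenic cell from pooled nodes of mice with no tumor. Each sample is a pool from a separate experiment, so differences between single mice are not seen. No group given Matrigel alone was analysed here, so the tumor and its vehicle cannot be told apart.

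Initiation starts when eIF2 carries the initiator tRNA to the small ribosomal subunit together with eIF1, eIF1A, eIF3 and eIF5. The eIF4 factors bind the cap of the mRNA and unwind its leader, and eIF5B then joins the large subunit. During elongation eEF1A delivers aminoacyl-tRNAs and eEF2 shifts the ribosome by a codon. Resting lymphocytes make little protein, and antigen raises their rate of protein synthesis, largely through mTORC1, which frees eIF4E from its binding proteins, and through Myc. Phosphorylation of eIF2 by stress-sensing kinases lowers initiation in general and favours a few mRNAs such as that of Atf4. An array measures mRNA only, and not the amount or the phosphorylation of these proteins.

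All 5 arrays had been scaled to a common trimmed mean, so no comparison can show a change of total mRNA per cell. The T cell genes Cd3d, Cd3e, Cd3g, Cd4 and Cd28 were bright on every array, with a summed intensity of 11844.6 to 13340.6 on activated arrays and 10565.1 to 11413.5 on naive arrays. The 7 myeloid markers summed to 5911.7, 186.6 and 1639.5 on activated replicates 1, 2 and 3, against 520.5 and 290.6 on the naive arrays, and the NK receptor gene Ncr1 was at 265.3 on activated replicate 1 and at most 11.2 elsewhere. Activated replicate 1 therefore held the most myeloid and NK marker transcripts, and activated replicate 3 also had a higher myeloid sum than both naive arrays. Counts without each of these arrays are given below. The B and plasma cell markers summed to at most 69.3 on any array. Of the CD8 markers, Cd8b1 was lower on the activated arrays, at 326.5, 246.8 and 275.0 against 797.6 and 995.7. Cd8a overlapped between the groups, at 79.2, 24.4 and 18.7 against 54.0 and 44.6, and was not called. The proliferation gene Mki67 was at 744.6, 1030.3 and 982.9 on activated arrays against 61.9 and 31.7 on naive arrays.

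Most translation factor genes lay close to the naive level in activated cells. Of the 58 genes, 56 passed the filter on dim probe sets and were tested, with 1 probe set per gene. A call is an adjusted p under 0.05 from limma, Benjamini-Hochberg adjusted across 12860 genes, for the log2 difference between activated and naive cells (log2 fold change, positive where activated cells are higher). Eif2s3y, Eif4e2, Eif3l and Eif2ak1 were called higher, Eif4e3 and Eif4a2 were called lower, and 50 did not pass. These 6 calls are 10.7% of the genes tested, beside 10.5% of all tested genes called in either direction, so the family as a whole was called no more often than the array at large. By direction, the background was 6.37% higher and 4.14% lower. The median log2 fold change of the 56 genes was 0.10, beside -0.03 over all genes tested. In 19 of the 56 genes, or 33.9%, all activated arrays lay above both naive arrays, beside 20.3% of all tested genes, and in 4 genes, or 7.14%, all lay below, beside 20.7%. The remaining 33 genes overlapped between the groups. In bulk cells, more cells with a transcript and more transcript per cell cannot be told apart.

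**Figure D1:**
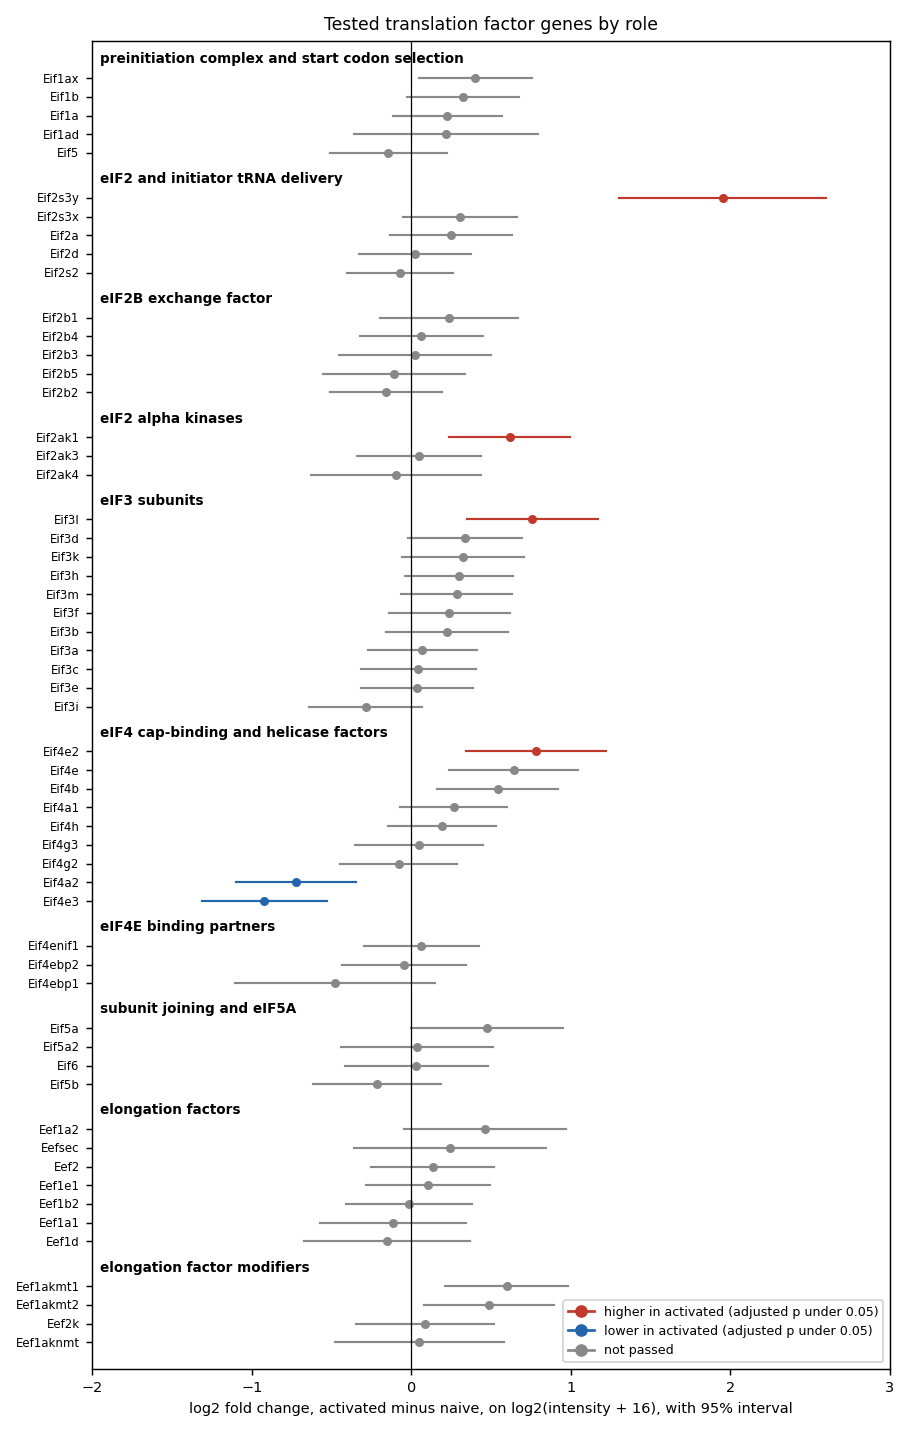
Log2 fold change (activated minus naive, on the scale of log2(intensity + 16)) of the 56 tested translation factor genes, grouped by role, with 95% intervals of limma's moderated test from 3 activated and 2 naive arrays. Red marks the 4 genes called higher, blue the 2 called lower and grey the 50 that did not pass, most of which sit within 0.5 of 0.

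The standard errors of the log2 fold changes ran from 0.15 to 0.29. On the scale of log2(intensity + 16), 48 of the 50 genes not passed had a 95% interval excluding a 2-fold change either way. The intervals are unadjusted for the number of genes. Eif4e and Eif4ebp1 were the exceptions. For 25 of the 50 the interval also excludes a 1.5-fold change on that scale. The added 16 shrinks changes, most for dim genes, so an interval could still reach such a change of the intensity itself. Eef1a2 and Eef1akmt1 came nearest, with upper limits of 0.97 and 0.98. These intervals hold only for the 1 probe set used per gene. Over all probe sets, others of these genes had log2 intervals that reach a 2-fold change. Examples are 0.75 to 1.67 for Eif5a (1437859_x_at), 0.55 to 1.43 for Eif2s3x (1421895_at) and 0.45 to 1.51 for Eif4b (1426379_at). Calls rested on few arrays. Without activated replicate 1 there was 1 gene called higher and 1 lower, without activated replicate 2 there were 2 and 1, without activated replicate 3 there were 1 and 2, without naive replicate 1 there were 2 and 1, and without naive replicate 2 there were 3 and 0. Eif2s3y was called in all 5 of these fits.

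The helicase of the cap-binding complex, eIF4A, is encoded by a pair of paralogs, and they moved apart. Eif4a2 read 1717.8, 1540.7 and 2044.4 (linear intensity) in activated cells, against 2862.4 and 2948.2 in naive cells. All activated arrays lay below both naive arrays, and the log2 difference was -0.72 ± 0.17 (SE, adjusted p = 0.022 in limma). Eif4a1 has 3 probe sets, and on each of them all activated arrays lay above both naive arrays. On 1430980_a_at it had 1471.1, 1272.6 and 1785.7 in activated cells, against 873.5 and 759.2 in naive cells. That was a log2 difference of 0.86 ± 0.19 (SE, adjusted p = 0.019 in limma over all 29201 probe sets tested). On 1427058_at the intensities were 1858.3, 1309.1 and 1678.8 in activated cells against 923.6 and 1012.1 in naive cells, a log2 difference of 0.72 (adjusted p = 0.044). The brightest probe set, which stands for the gene in the comparison of genes, showed less, with 1420.8, 1555.0 and 1591.2 against 1281.5 and 1243.9 and a log2 difference of 0.27 ± 0.15 (SE, adjusted p = 0.32). The mean of the 3 probe sets had a log2 difference of 0.62 and passed (adjusted p = 0.023). So the size of the Eif4a1 difference depends on the probe set, and its direction does not.

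The Eif4a2 call was lost without activated replicate 1, at -0.71, without activated replicate 2, at -0.63, without naive replicate 1, at -0.74, and without naive replicate 2, at -0.70, where the value itself moved little. The call of Eif4a1 on 1430980_a_at was lost without activated replicate 1, at 0.88, and without naive replicate 2, at 0.76. That on 1427058_at was lost on leaving out any array, with values from 0.61 to 0.86. The difference between the paralogs was not itself tested.

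The start regions of these paralogs and of Eif4e are shown because their transcripts differed in direction and the regions differ in the hexamer CACGTG. That hexamer is the E-box read by Myc and related factors. The choice was made with these values known, and Eif4a1 and Eif4e were not called in the comparison of genes. Each stretch runs from 250 bases before the annotated start to 50 after it, 5′ to 3′ in the direction of the gene, from RefSeq on GRCm38.p6, with every CACGTG in capitals. The hexamer is its own reverse complement, so a match holds for both strands. The stretches are chr11:69672374-69672673 on the minus strand for Eif4a1, chr16:23107218-23107517 on the plus strand for Eif4a2 and chr3:138527018-138527317 on the plus strand for Eif4e.
Eif4a1: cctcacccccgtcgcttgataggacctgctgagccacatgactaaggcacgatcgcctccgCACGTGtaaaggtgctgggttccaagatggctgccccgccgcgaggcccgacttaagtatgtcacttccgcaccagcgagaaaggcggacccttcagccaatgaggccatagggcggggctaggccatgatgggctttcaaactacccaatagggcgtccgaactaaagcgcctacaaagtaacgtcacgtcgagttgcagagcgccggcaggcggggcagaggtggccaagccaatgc
Eif4a2: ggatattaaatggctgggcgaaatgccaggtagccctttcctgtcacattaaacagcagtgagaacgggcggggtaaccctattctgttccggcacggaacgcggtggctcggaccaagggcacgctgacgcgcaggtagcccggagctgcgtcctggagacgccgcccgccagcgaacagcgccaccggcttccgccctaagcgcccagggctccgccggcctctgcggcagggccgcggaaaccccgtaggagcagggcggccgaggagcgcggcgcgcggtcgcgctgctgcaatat
Eif4e: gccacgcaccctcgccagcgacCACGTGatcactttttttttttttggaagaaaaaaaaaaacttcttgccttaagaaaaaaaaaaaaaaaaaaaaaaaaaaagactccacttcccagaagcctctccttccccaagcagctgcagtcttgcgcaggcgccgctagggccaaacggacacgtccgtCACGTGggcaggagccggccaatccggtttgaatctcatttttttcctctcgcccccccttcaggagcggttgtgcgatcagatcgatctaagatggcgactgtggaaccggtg

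Eif4a1 has 1 E-box, which begins 189 bases before the start, Eif4a2 has 0, and Eif4e has 2, which begin 228 and 64 bases before the start. The Eif4e stretch is 1 of 2 listed for that gene and was picked as the one with more E-boxes. The other stretch has 0. Among the 47 translation factor genes with a listed start region, 12 held the hexamer in at least 1 stretch, or 25.5%, beside 11.3% of the 10393 tested genes with one. They were Eif4e, Eif4a1, Eif4h, Eif5a, Eif5a2, Eif3a, Eif3f, Eif3k, Eif1b, Eef2, Eef2k and Eef1aknmt. Their log2 fold changes ran from 0.04 for Eif5a2 to 0.64 for Eif4e, and none was called in the comparison of genes. Of all 56 tested translation factor genes, 41 lay above 0. Whether the hexamer bears on these values was not tested. Of the 6 genes called in the comparison of genes, Eif4e3 has no listed stretch and the other 5 lack the hexamer. An ETS-type word, CCGGAAG on either strand, was in 16 of the 47, or 34%, beside 19.1% of tested genes. These are matches of letters and show no binding.

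The cap itself is bound by eIF4E, which has 3 measured family members. Eif4e, the main cap-binding protein, had 543.4, 548.8 and 584.3 in activated cells, against 424.2 and 291.8 in naive cells. The groups did not overlap, and the log2 difference of 0.64 ± 0.18 (SE) narrowly missed the threshold in limma (adjusted p = 0.051). It passed in 7 of the alternatives, among them without naive replicate 1, where it was 0.90, and on the mean of its probe sets it was 0.25. Its second probe set, 1423220_at, had 167.8, 181.5 and 182.6 against 122.2 and 125.6, with a log2 difference of 0.47 (adjusted p = 0.15), and a dim one stood at -0.01.

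Eif4e2 encodes a cap-binding protein that does not join eIF4G and is known as a translational repressor. It had 607.9, 736.1 and 649.2 in activated cells, against 304.6 and 469.9 in naive cells, all activated arrays above both naive arrays, and a log2 difference of 0.78 ± 0.20 (SE, adjusted p = 0.032 in limma). A second bright probe set, 1421985_a_at, gave 486.6, 535.1 and 483.2 against 299.1 and 263.3, a log2 difference of 0.80 (adjusted p = 0.017 over all probe sets). The other 3 probe sets of Eif4e2 were dim and had log2 fold changes of 0.08, -0.13 and -0.38, none of which passed. Both bright probe sets carry a suffix that marks probes shared among transcripts, and among probe sets without a suffix Eif4e2 stood at -0.13 and was not called. The call was also lost without activated replicate 1, at 0.84, activated replicate 2, at 0.71, activated replicate 3, at 0.80, and naive replicate 1, at 0.48, and on the mean of all probe sets, at 0.23.

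Eif4e3, an atypical cap-binding protein, went the other way. It had 217.8, 230.3 and 216.8 in activated cells, against 370.8 and 506.8 in naive cells, and the log2 difference was -0.92 ± 0.18 (SE, adjusted p = 0.0076 in limma), the lowest among the 56 genes. All activated arrays lay below both naive arrays. The call was lost without naive replicate 2, at -0.70 (adjusted p = 0.093). Its second probe set, 1417977_at, had 159.6, 199.4 and 155.0 against 245.6 and 194.1, overlapped between the groups and stood at -0.33 (adjusted p = 0.36 over all probe sets).

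Eif4b, which stimulates the helicase, was above both naive arrays on every activated array and on each of its 3 probe sets. Its brightest probe set had 1462.6, 1746.1 and 1352.5 in activated cells, against 1114.6 and 957.8 in naive cells, with a log2 difference of 0.54 ± 0.17 (SE, adjusted p = 0.073 in limma). The other two were called over all probe sets, at 0.98 (adjusted p = 0.034) and 0.67 (adjusted p = 0.034). The first of these had 693.8, 576.6 and 590.4 against 411.3 and 225.1, and it lost its call without activated replicate 1, 2 or 3 and without naive replicate 2, with values of 0.90, 1.03, 1.01 and 0.57. The second had 1250.2, 1424.7 and 1169.4 against 810.5 and 785.9, and it lost its call on leaving out any array except activated replicate 3, with values from 0.59 to 0.69. The related helicase cofactor Eif4h stood at 0.19 (adjusted p = 0.49), with its groups apart. Of the scaffold genes, Eif4g2, which lacks an eIF4E-binding site, stood at -0.08, and Eif4g3 at 0.05, with adjusted p of 0.82 and 0.92. Eif4g1 was not analysed here.

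**Figure D2:**
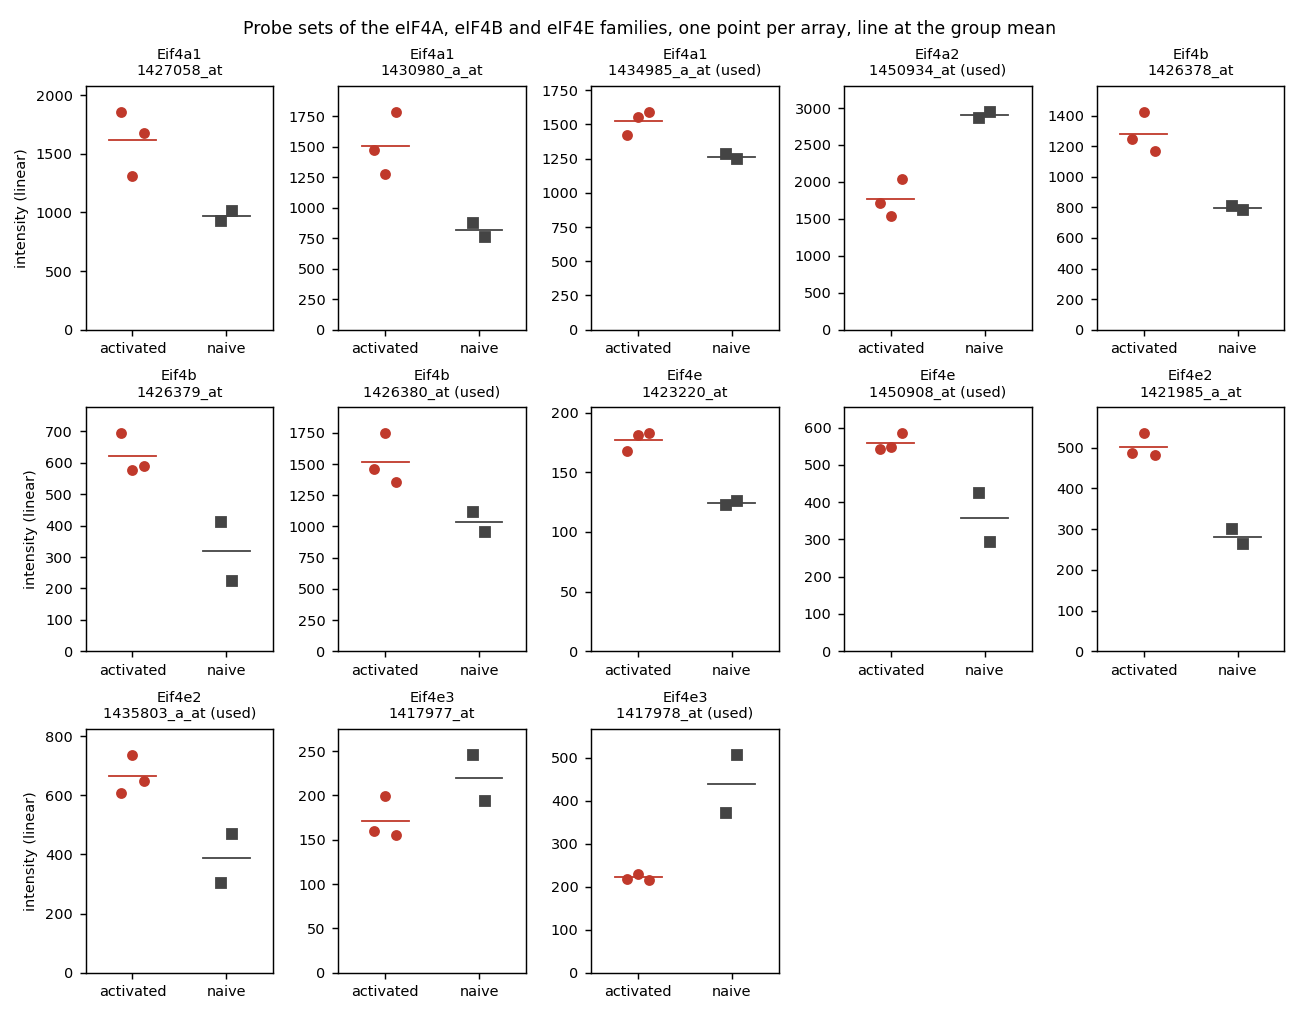
Linear intensity on each array (3 activated, red circles; 2 naive, dark squares; lines at the group means) for the tested probe sets of Eif4a1, Eif4a2, Eif4b, Eif4e, Eif4e2 and Eif4e3, leaving out 4 dim probe sets of Eif4e and Eif4e2. The word used marks the probe set that stands for the gene. The 3 Eif4a1 and 3 Eif4b probe sets have every activated array above the naive arrays, and Eif4a2 and the used probe set of Eif4e3 have every activated array below them.

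The proteins that hold eIF4E did not pass. Eif4ebp1, released from eIF4E when mTORC1 phosphorylates it, had 120.7, 52.6 and 88.0 in activated cells, against 102.5 and 145.3 in naive cells. Its groups overlapped, and the log2 fold change of -0.48 had a 95% interval from -1.10 to 0.15 (adjusted p = 0.34 in limma). All 3 of its probe sets were negative, from -0.37 to -0.49. Eif4ebp2, the related binding protein, stood at -0.05 (95% interval from -0.43 to 0.34), and its 4 probe sets above the filter lay between -0.05 and 0.03. Eif4enif1, which carries eIF4E into the nucleus, stood at 0.06.

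No gene was called among the 5 tested that were grouped here under start codon selection. The part of each in that step was not tested. Eif1ax, a copy of eIF1A, had 928.8, 855.0 and 836.7 in activated cells, against 592.6 and 727.6 in naive cells. Its groups were apart, with a log2 difference of 0.40 (adjusted p = 0.15 in limma). Its dimmer probe sets, 1449576_at and 1437071_at, went the other way, at -0.29 and -0.27, with overlapping groups, and neither passed. Eif1b and Eif1a, whose groups were also apart, stood at 0.33 and 0.23, and Eif1ad at 0.22 with overlapping groups. Eif5, the factor that makes eIF2 hydrolyse its GTP, stood at -0.14 (adjusted p = 0.66). All 5 Eif5 probe sets were negative, from -0.57 to -0.05, and on 3 of them every activated array lay below both naive arrays, but none passed.

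The eIF2 complex contains the largest difference among the 56 genes. Eif2s3y, the Y-linked copy of the gamma subunit gene, had 334.2, 229.5 and 374.8 in activated cells, against 101.4 and 43.2 in naive cells. All activated arrays were above both naive arrays, and the log2 difference was 1.95 ± 0.29 (SE, adjusted p = 0.0019 in limma). The other Y-linked genes measured rose as well. Kdm5d, a histone demethylase gene, had 112.9, 117.9 and 159.7 in activated cells, against 57.8 and 32.6 in naive cells, at 1.27 (adjusted p = 0.0063). Uty, another demethylase gene, had 114.1, 91.9 and 135.5 against 40.2 and 19.5, at 1.53 (adjusted p = 0.0031). Xist, which is expressed from the inactive X chromosome of females, was bright on every array, with 1307.3, 1449.6 and 1021.9 against 1195.4 and 1510.9, at -0.11 (adjusted p = 0.79). The labels do not give the sex of the pooled mice, and the part of a different share of male cells in the Eif2s3y value was not tested. Kdm5d lost its call without naive replicate 2, at 0.97, and on the mean of its probe sets, at 0.70.

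Eif2s3x, the X-linked copy, had 1006.6, 995.3 and 833.6 in activated cells, against 796.7 and 722.5 in naive cells, on its brightest probe set, at 0.31 (adjusted p = 0.28 in limma). Its probe set without a suffix, 1421895_at, had 256.1, 230.1 and 294.7 against 141.2 and 106.7, at 0.99 ± 0.20 (SE, adjusted p = 0.014 over all probe sets), a call it lost without naive replicate 2, at 0.81. All 3 probe sets had every activated array above both naive arrays. The beta subunit gene Eif2s2 stood at -0.07, and its 6 probe sets were all negative, from -0.70 to -0.04, with none called. Eif2a and Eif2d, which can deliver initiator tRNA without eIF2, stood at 0.25 and 0.02. Eif2s1, the alpha subunit gene, was not analysed here. The 5 subunit genes of eIF2B, the exchange factor that recharges eIF2 with GTP, lay between -0.16 and 0.24, with 0 called in the comparison of genes and over all probe sets.

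Of the eIF2 kinases, Eif2ak1, which is regulated by heme, had 134.2, 125.7 and 135.0 in activated cells, against 82.3 and 78.3 in naive cells. The groups were apart, and the log2 difference was 0.62 ± 0.17 (SE, adjusted p = 0.047 in limma). The call was marginal. It was lost on leaving out any of activated replicates 1, 2 and 3 or naive replicates 1 and 2, with values from 0.59 to 0.65, and over all probe sets (adjusted p = 0.074). The other 3 probe sets above the filter lay at 0.22, -0.13 and -0.14 with overlapping groups, and the mean of all probe sets stood at 0.12. Eif2ak3, the kinase of endoplasmic reticulum stress, and Eif2ak4, the kinase of amino acid shortage, stood at 0.05 and -0.10 (adjusted p = 0.91 and 0.86).

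Of a list of 12 tested genes of the integrated stress response, which holds mostly targets of these kinases and also the kinase gene Eif2ak2, 0 rose and 3 fell, or 25%, beside 4.14% of all tested genes called lower. Trib3, a pseudokinase induced by that response, had 17.0, 24.1 and 27.3 in activated cells, against 109.9 and 114.0 in naive cells, at -1.73 ± 0.21 (SE, adjusted p = 5.6e-04 in limma). Ddit3, which encodes the factor CHOP, had 173.1, 146.8 and 157.9 against 274.9 and 254.1, at -0.68 (adjusted p = 0.026). Atf4, the main transcription factor of the response, had 264.3, 421.9 and 561.4 against 649.1 and 1224.7, at -1.13 ± 0.32 (SE, adjusted p = 0.047). All 3 had every activated array below both naive arrays. Trib3 kept its call on leaving out each array. Atf4 lost it without activated replicate 1, at -0.85, activated replicate 2, at -1.18, or naive replicate 2, at -0.68, and Ddit3 lost it on leaving out any array except activated replicate 1, with values from -0.73 to -0.63. So without activated replicate 2, and without naive replicate 2, 1 gene fell, Trib3. On the mean of all probe sets Ddit3 stood at -0.13 and Atf4 at -0.57, and neither passed. The Atf4 and Trib3 probe sets carry the suffix _x, for probes shared with other sequences. Among probe sets without a suffix Atf4 stood at -0.55 and was not called. Other genes of the list lay above 0. Sesn2, a stress-induced inhibitor of mTORC1, had 58.5, 46.2 and 35.0 in activated cells, against 6.0 and 28.1 in naive cells, with the groups apart, at 0.99 (adjusted p = 0.078), and it passed with the replicate block, at 1.13, and on leaving out naive replicate 2, at 1.49. Atf3, Asns and Nupr1 stood at 0.50, 0.47 and 0.53 with overlapping groups and did not pass. Atf5, Chac1, Ppp1r15a, Ppp1r15b and Eif2ak2 lay between -0.60 and -0.11 and did not pass.

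**Figure D3:**
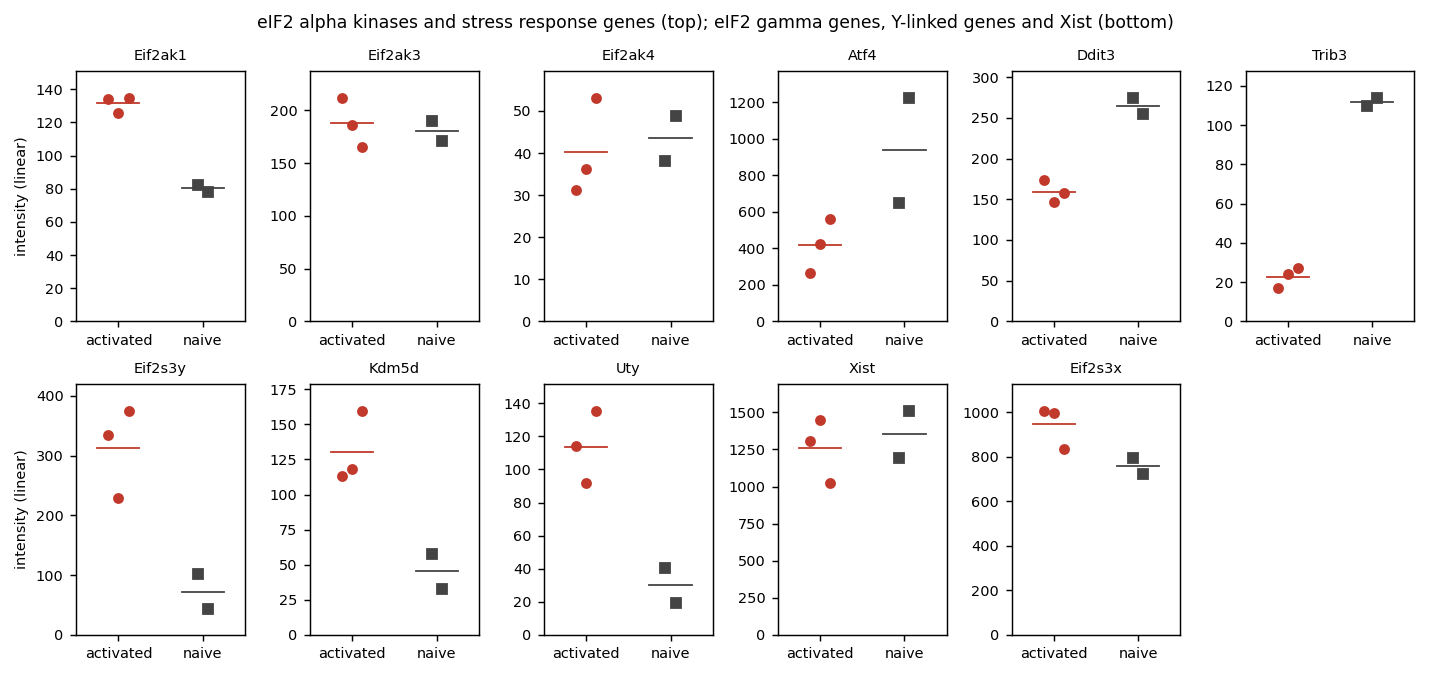
Linear intensity on each array (3 activated, red circles; 2 naive, dark squares; lines at the group means). In the top row Eif2ak1 is higher in activated cells, Eif2ak3 and Eif2ak4 overlap, and Atf4, Ddit3 and Trib3 are lower; in the bottom row the Y-linked genes Eif2s3y, Kdm5d and Uty are higher in activated cells while Xist overlaps.

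eIF3 is the large scaffold on which the small subunit, eIF1 and eIF4G assemble. Of its 11 measured subunit genes, 1 was called higher and 0 lower, and 10 had a log2 fold change above 0, with a median of 0.24. Over all tested genes 46.9% lay above 0. Eif3l, a peripheral subunit, had 1351.9, 1031.0 and 1243.4 in activated cells, against 609.1 and 811.8 in naive cells, at 0.76 ± 0.19 (SE, adjusted p = 0.026 in limma), with the groups apart. Its other 2 probe sets were dim, at 52.6 or less on every array, and stood at -0.37 and -0.24, neither of which passed. The call was lost without activated replicate 1, at 0.67, activated replicate 3, at 0.73, and naive replicate 1, at 0.56, and on the mean of all probe sets, at 0.05. Eif3d, Eif3h and Eif3m, whose groups were apart, stood at 0.34, 0.30 and 0.28, and Eif3k, Eif3f and Eif3b at 0.32, 0.24 and 0.22. The core subunit genes Eif3a and Eif3c stood at 0.07 and 0.05 on their brightest probe sets. Both had another probe set at a higher value, 0.93 for Eif3a (adjusted p = 0.052 over all probe sets) and 0.63 for Eif3c (adjusted p = 0.086). Eif3i was the negative one, with 2825.5, 3143.5 and 2797.1 against 3346.7 and 3793.2, at -0.29 (adjusted p = 0.31), and its second probe set stood at 0.09.

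Eif5a, whose protein carries the modified amino acid hypusine, helps ribosomes through difficult peptide bonds. Its brightest probe set had 7041.7, 6173.9 and 4669.8 in activated cells, against 4863.8 and 3665.9 in naive cells, and overlapped at 0.48 ± 0.21 (SE, adjusted p = 0.21 in limma). The second, 1437859_x_at, had 1520.0, 1189.2 and 1085.6 against 631.6 and 448.5, with the groups apart, at 1.21 ± 0.21 (SE, adjusted p = 0.0063 over all probe sets). That call was lost without naive replicate 2, at 0.97. Both carry a suffix for probes shared with other sequences, so transcripts of near-identical copies could add to either. The mean of both stood at 0.84 and passed (adjusted p = 0.026), and with quantile normalization the brightest one also passed, at 0.56. Of 4 tested genes for hypusine and its polyamine precursors, Odc1, ornithine decarboxylase, rose, with 1136.3, 876.0 and 1179.8 against 459.4 and 654.9, at 0.92 (adjusted p = 0.015), a call it lost without naive replicate 1, at 0.68. The hypusine enzymes Dhps and Dohh stood at -0.33 and -0.04 and the spermidine synthase Srm at -0.01, none of which passed.

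The subunit joining factor Eif5b stood at -0.21 (adjusted p = 0.53 in limma). A dim Eif5b probe set, 1435592_at, had 12.1, 5.1 and 9.9 in activated cells, against 33.9 and 30.5 in naive cells. It passed the filter only through the naive arrays, so its call over all probe sets, which was lost without activated replicate 1, 2 or 3, is given as a count and not as a size. Eif6, which keeps the large subunit from joining too early, had 470.7, 314.2 and 379.6 against 325.8 and 429.4, at 0.03, and Eif5a2 stood at 0.04.

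None of the 7 elongation factor genes was called in limma, and 0 had an unadjusted p under 0.05, and the brightest of them lay close to the naive level. Eef1a1, which delivers aminoacyl-tRNA to the ribosome, had 10253.2, 9819.9 and 7660.4 in activated cells, against 11591.4 and 8538.3 in naive cells. Its log2 fold change was -0.12, with a 95% interval from -0.58 to 0.34 (adjusted p = 0.79 in limma). Eef2, the translocase, had 4778.0, 4515.3 and 3697.4 against 4023.1 and 3826.9, at 0.13, with an interval from -0.25 to 0.52. Eef1b2, a nucleotide exchange subunit for eEF1A, had 6303.2, 5675.6 and 4803.9 against 5913.3 and 5345.5, at -0.02, with an interval from -0.41 to 0.38. Groups overlapped in each of these. Eef1d, another exchange subunit, stood at -0.15, Eef1e1, a protein of the tRNA synthetase complex, at 0.11, and Eefsec, the factor for selenocysteine, at 0.24. Eef1a2, best known from muscle and neurons, had 105.8, 61.7 and 75.8 against 50.6 and 56.1, with its groups apart, at 0.46 (adjusted p = 0.25).

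Enzymes that modify elongation factors gave few differences. Eef2k, the kinase that inhibits eEF2, had 58.4, 52.9 and 64.6 in activated cells, against 53.0 and 55.4 in naive cells, at 0.09 (adjusted p = 0.85 in limma), and its other 2 probe sets stood at -0.13 and -0.37. Eef1akmt1, a lysine methyltransferase of eEF1A, had 294.5, 305.3 and 273.6 against 163.1 and 213.4, with the groups apart, and narrowly missed the threshold at 0.60 (adjusted p = 0.055). It passed in 6 of the alternatives, and on the mean of its probe sets it was 0.34. The brighter of its probe sets without a suffix, 1418386_at, had 243.1, 264.2 and 264.6 against 130.3 and 156.7, at 0.78 (adjusted p = 0.026 over all probe sets), a call lost on leaving out any array, with values from 0.66 to 0.90, and a dim probe set stood at -0.20. Eef1akmt2 stood at 0.49 (adjusted p = 0.13), with its groups apart. Of 6 tested genes for diphthamide, the modified histidine of eEF2, Dph5 fell, with 202.1, 203.0 and 268.0 against 364.3 and 480.9, at -0.87 (adjusted p = 0.017), and 0 rose. Dph5 lost its call without activated replicate 1, at -0.80, activated replicate 2, at -0.80, or naive replicate 2, at -0.67. Eef2kmt and Eif4a3 were below the filter on their only single-symbol probe set and were not tested.

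Other lists of the translation machinery are set beside the 10.5% of all tested genes called. Of 44 tested cytosolic ribosomal protein genes, 4.55% were called, with 36 of 44 below 0 and a median of -0.11. In limma 1 rose, Rps27l, at 0.88 (adjusted p = 0.025), and 1 fell, Rpl12, at -1.03 (adjusted p = 0.018). The Rpl12 probe set was dim beside most of this list, with 178.4, 141.8 and 217.5 in activated cells, against 298.7 and 474.6 in naive cells. Rps27l lost its call without activated replicate 1, activated replicate 2 and naive replicate 2, with values of 0.79, 0.79 and 0.67, and Rpl12 without activated replicate 2, at -0.88, or naive replicate 2, at -0.71. Without activated replicate 3, Rpl39l also rose, at 1.23. Of 12 tested termination, recycling and poly(A)-binding genes, 1 rose and 0 fell, or 8.33%. It was the poly(A)-binding protein gene Pabpc4, with 467.7, 341.2 and 388.3 in activated cells, against 168.4 and 212.2 in naive cells, at 1.01 (adjusted p = 0.0063), a call it lost without naive replicate 1, at 0.85. The termination factor genes Etf1 and Gspt1 had their groups apart, at 0.46 and 0.50, and did not pass. Both passed with the bioC split as a block, described below, at 0.45 and 0.50. Hbs1l of this list stood at 0.13 and passed among probe sets without a suffix, at 0.67. Of 9 mitochondrial translation factor genes, 0 rose and 0 fell in limma, with log2 differences from -0.36 to 0.58, with 2 higher at an unadjusted p under 0.05. Mrrf, a ribosome recycling factor, stood at 0.58 (adjusted p = 0.068) and passed in 3 alternatives. Of 15 tested regulators around mTORC1 and the MNK kinases, 1 was called, or 6.67%. It was Tbc1d7, a subunit of the TSC complex that restrains mTORC1, with 33.9, 63.2 and 58.1 in activated cells, against 2.8 and 2.8 in naive cells. It passed the filter only through the activated arrays, so its call is no evidence for the list, which then holds 0 calls among genes measured in both groups. In alternatives, Mknk2 passed among probe sets without a suffix, at 0.89, beside 0.13 on its brightest probe set. Tsc1 passed as lower with the bioC split as a block, at -0.54.

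Across probe sets rather than genes, 138 of the 153 passed the filter, and 11 were called higher and 3 lower, of which 1, the Eif5b probe set, was above the filter on naive arrays only. That is 10.1%, beside 7.75% of all probe sets tested, 4.8% higher and 2.94% lower. The 14 called probe sets belong to 11 genes, of which Eif4a1, Eif4b, Eif5a, Eif2s3x, Eef1akmt1 and Eif5b were not called on their brightest probe set. All activated arrays lay above both naive arrays on 41 probe sets, or 29.7%, beside 18.8% of all probe sets, and below on 14, or 10.1%, beside 20.3%. Of the 37 genes with more than 1 probe set above the filter, 19 had probe sets on both sides of 0. In 5 of these, Eef1akmt1, Eif2ak1, Eif3l, Eif4e2 and Eif5b, a call stood beside a probe set of the opposite sign, which did not pass in any of them. Probe sets of a gene share their RNA and are not replicates.

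**Figure D4:**
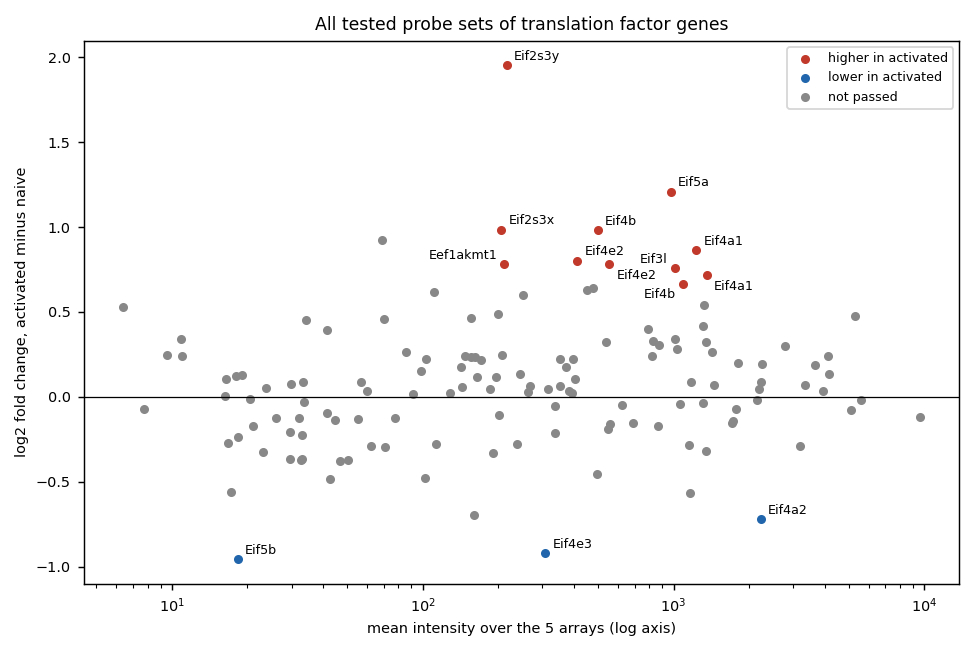
Log2 fold change (activated minus naive) of the 138 tested probe sets of translation factor genes against their mean intensity over the 5 arrays, on a log axis. Red marks the 11 called higher and blue the 3 called lower, each with its gene name; most probe sets at every intensity lie near 0, and the brightest, Eef1a1, stands at -0.12.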

How the data were processed

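The authors deposited 1 linear intensity per probe set and array; 6 µg of Trizol-extracted RNA went into each biotinylated cRNA, per the labels' protocols. Which scanner software and probe set summary were used is not given in the sources used here. Gene symbols are those of the platform annotation: 34945 probe sets had 1 symbol, 932 several, 9160 none and 64 were array controls. Intensities were analysed as log2(intensity + 16), which shrinks changes of dim probe sets. For each gene the probe set with the highest mean log2 value was used, and it was tested if above its array's 40th percentile on at least 2 arrays. limma 3.58.1 (R 4.3.3) fitted the group alone, with eBayes and an intensity trend, two-sided, over 12860 genes, and again over 29201 probe sets. Errors are moderated standard errors and intervals are 95%. No 2 arrays were copies, with at most 0.947% of values equal. Code was tested on simulated arrays. Named genes were those called, the 5 largest rises and falls, a fixed panel, those with opposed probe sets of which 1 was called, and called genes of the pathway lists; others were named after their values were seen. The members, lists and tests were chosen with earlier results of these data known. Suffixes _a, _s and _x mark probes shared among transcripts or with other sequences. Of the pathway lists, Atf4, Trib3, Odc1, Pabpc4 and Rps27l were called on probe sets with the suffix _x. Start regions came from RefSeq (GRCm38.p6), listed for 47 of the 58 genes. The 3 and 2 arrays limit the precision.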

Additional observations from a re-analysis of the deposited data

How the results depend on the processing

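Comparisons were recomputed under up to 18 alternatives for genes and 16 for probe sets, fewer where a gene or probe set was not above the filter or had no probe set without a suffix. Of the genes called, Eif2s3y passed in 18 of 18 (log2 fold change from 0.91 to 2.45), Eif4e3 in 17, Eif3l in 12, Eif4a2 in 12, Eif4e2 in 10 and Eif2ak1 in 6, and only Eif4e2 turned its sign, to -0.13 among probe sets without a suffix. The 4 genes called higher became 1 with no filter or without the intensity trend and 7 with the replicate block, with the bioC split as a block or among probe sets without a suffix; leaving out 1 array gave 1 to 3. The 2 called lower became 1 with no filter or without the trend, and 0 to 2 on leaving out 1 array. The 11 probe sets called higher became 6 with no filter, 4 without the trend and 18 with the bioC split as a block, and 3 to 7 on leaving out 1 array. The 3 called lower became 1 with no filter and 5 with the bioC split as a block, and 0 to 2 on leaving out 1 array. No filter raises the number of tests and a left-out array lowers the number of samples; the other causes were not tested. Of the 50 genes not called, 6 passed in at least 1 alternative (Eef1akmt1, Eif2s3x, Eif4a1, Eif4b, Eif4e and Eif5a), always upward, and 23 turned their sign at least once without passing. With the replicate number as a block Eif4e, Eif4b, Eif5a and Eef1akmt1 passed, at 0.61, 0.62, 0.64 and 0.64, and Eif2ak1 did not, at 0.60. Activated replicate 3 has no naive array in its block, so these values are the same as without that array. The labels share only the numbers between groups, so the numbers were not taken as pairs. Deviations from the group means correlated at 0.169 for the arrays numbered 1 and -0.131 for those numbered 2. Activated replicate 3 stood at 0.311 with naive replicate 2 and -0.311 with naive replicate 1. With 2 naive arrays, their deviations are mirror images, so the signs of these values cannot test a pairing. The bioC hybridisation control was lower on activated replicate 3 and naive replicate 2 than on the other 3 arrays; on the lower and the higher side the log2 differences were -1.17 and -0.69 for Eif4e3, -0.52 and -0.81 for Eif4a2, 0.45 and 1.10 for Eif4e2, 0.61 and 0.94 for Eif3l, 0.68 and 0.57 for Eif2ak1 and 2.72 and 1.32 for Eif2s3y. Over all genes tested, 819 were higher and 533 lower, against 527 and 276 without activated replicate 2 and 463 and 185 without naive replicate 2; 342 were lower without naive replicate 1, 349 with no filter and 859 with the bioC split as a block. No detection calls were used, so signal over background is known only through the filter.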

Other observations

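Some translation factors are measured above the filter only by probe sets that the annotation assigns to several genes, and these entered no comparison of genes. The probe set for Eef1g, an eEF1 subunit gene, and Gm29753 had 5073.5, 4385.5 and 3884.6 on the activated arrays, against 4790.9 and 4571.3 on the naive arrays. That for Eif4a3, the helicase of the exon junction complex, and Gm5576 had 663.9, 742.9 and 740.8 against 712.4 and 680.1. The brightest of 3 for the near-identical eIF3 subunit genes Eif3j1 and Eif3j2 had 827.3, 819.7 and 839.4 against 722.7 and 811.8. The probe set shared by Ankhd1 and the eIF4E-binding protein gene Eif4ebp3 had 237.1, 237.2 and 324.9 against 338.2 and 455.9, with every activated array below both naive arrays. In limma over all probe sets none of these 4 passed. In the order given, their log2 differences were -0.08, 0.04, 0.11 and -0.55, and the adjusted p-values were 0.83, 0.92, 0.74 and 0.15.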
